A study of Mus musculus with 40 samples.

Results

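The genes described here are 40 imprinted genes of the mouse, chosen as a named list of genes known to be expressed mainly from one parental allele and found in the count table by Ensembl identifier and symbol. All 40 had a row among the 55471 genes of the table. By the parental allele known to be active, 22 are paternally expressed, 16 are maternally expressed, and 2, Grb10 and Gnas, switch between parental alleles by promoter or tissue. They lie in 17 clusters on 11 chromosomes, and 15 of them are on chromosome 7. After a filter on low counts over all 8 groups, 37 of the 40 remained among 18441 genes tested, made up of 21 paternally expressed genes, 14 maternally expressed genes and both switching genes.

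Frozen punches were taken from adult mice of the strains C57/Bl6 (C57 below) and DBA, and held the ventral tegmental area, where many dopamine neurons of the midbrain lie. In repeated cross fostering (RCF), a litter is moved to another adoptive mother daily from postnatal day 1 to 4, and the controls were unhandled. The 8 groups were RCF and control males and females of each strain, with 5 libraries in each, and no genotype other than the strain is given in the labels. The labels give neither litter nor animal, so the p-values rest on the spread among libraries, which may be partly technical, and libraries from a shared litter or foster mother cannot be told apart.

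An imprinted gene is under marks, set in the germ line of one parent, that leave mainly one of its parental copies active. The mark is DNA methylation at a control region, which is copied through cell division by maintenance proteins, among them ZFP57 with its partner TRIM28. One control region often governs a whole cluster, in which protein-coding genes and long noncoding RNAs are read from opposite parental copies. In brain, imprinted genes are best known for roles in growth, feeding and maternal care, and Dlk1 is known to be made by midbrain dopamine neurons. The counts are summed over both alleles and all promoters of a gene, so none of the values below says which parental copy was read.

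Total counts ran from 16913124 to 28179071 per library. The punches differed in content. The 12 dopamine neuron markers summed to between 219 and 9443 CPM (read counts scaled to library size, with TMM factors), and none was at 0 in all libraries of a group. In 4 libraries the 8 markers of forebrain glutamate neurons summed to over 500 CPM: C57 control male 1 at 1653, C57 control male 5 at 734, C57 RCF female 4 at 1194 and DBA control female 3 at 1863. In DBA control female 3, 26 of the 37 members tested lay below, and 3 above, every other library of their group. C57 RCF female 4 had 19 below and 12 above. DBA control male 4, the library with the lowest total count, had the highest sum of hypothalamus markers, at 1234 CPM. In such punches, fewer cells of a type and less RNA per cell cannot be told apart.

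Promoter sequence was examined first, because the marks of imprinting are written in CpG-rich DNA. RefSeq windows (GRCm38.p6, 250 bases before to 50 after a start) were found for 32 of the 40 genes, 49 windows in all. The hexamer TGCCGC, which ZFP57 binds when it is methylated, was searched on either strand (GCGGCA on the printed strand is the same site reversed). It occurred in 12 of 49 member windows (24.5%) and in 11.6% of 32851 windows of all promoters. The 12 include a pair of overlapping Mest windows (chr6:30737800-30738099 and chr6:30737803-30738102). Member windows held a median of 15 CpG pairs against 7 over all promoters. The hexamer itself holds a CpG pair, and the shares were not adjusted for CpG content. The YY1 motif CCATNTT, also searched on both strands, occurred in 12.2% of member windows and 16.1% of all windows. These matches describe letters in the windows and no binding was measured. The 4 sequences below belong to genes named in the results. They are the Peg3 and Usp29 pair with its shared start region, Zdbf2, Meg3, and Ndn with the smallest p of the members between strains. For RCF against control, Meg3 had the smallest p of the members in DBA females. In C57 males, only Cdkn1c had a smaller p than Zdbf2 among the members. Neither Zdbf2 nor Meg3 passed after adjustment in any RCF comparison, and other members had larger log2 fold changes. The first 250 bases before the start are given on the plus strand for Zdbf2 (chr1:63200108-63200357), Ndn (chr7:62348027-62348276) and Meg3 (chr12:109540746-109540995). Peg3 is read from the minus strand and Usp29 from the plus strand, and the 163 bases between their starts (chr7:6730420-6730582) are printed on the plus strand. Capitals mark CpG pairs in the Peg3-Usp29 and Ndn sequences and the ZFP57 hexamer in those of Zdbf2 and Meg3.
Peg3-Usp29: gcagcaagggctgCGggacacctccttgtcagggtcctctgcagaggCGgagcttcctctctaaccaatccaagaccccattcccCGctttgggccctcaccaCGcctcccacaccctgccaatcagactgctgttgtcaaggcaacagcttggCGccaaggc
Ndn: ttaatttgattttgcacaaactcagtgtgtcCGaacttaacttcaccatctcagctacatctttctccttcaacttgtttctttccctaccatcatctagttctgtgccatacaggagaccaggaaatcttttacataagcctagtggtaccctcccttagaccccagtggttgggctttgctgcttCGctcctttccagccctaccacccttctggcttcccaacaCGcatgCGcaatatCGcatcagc
Zdbf2: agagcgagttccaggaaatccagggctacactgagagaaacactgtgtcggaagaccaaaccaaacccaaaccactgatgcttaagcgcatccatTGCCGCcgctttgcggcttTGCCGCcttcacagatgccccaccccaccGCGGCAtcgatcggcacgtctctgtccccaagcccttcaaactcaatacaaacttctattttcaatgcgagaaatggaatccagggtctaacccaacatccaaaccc
Meg3: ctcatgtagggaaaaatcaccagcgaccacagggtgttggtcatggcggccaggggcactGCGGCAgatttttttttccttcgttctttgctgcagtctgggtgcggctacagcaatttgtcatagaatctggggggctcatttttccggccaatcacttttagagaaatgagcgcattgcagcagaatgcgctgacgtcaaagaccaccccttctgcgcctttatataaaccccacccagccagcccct
The Peg3-Usp29 stretch and the Ndn stretch hold 5 CpG pairs each. The printed Zdbf2 stretch lies before its most upstream RefSeq start, ahead of the annotated GENCODE gene body (chr1:63273265-63314576), and holds 3 hexamers. The other Zdbf2 window (chr1:63273019-63273318), at the start of that gene body, holds 0 hexamers and 38 CpG pairs. The printed Meg3 stretch holds 1 hexamer, and the other Meg3 window (chr12:109545148-109545447) holds 0.

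Levels of the 40 genes spanned more than 4 orders of magnitude, with 18 genes over 100 CPM on average and 4 under 1 CPM. Among paternally expressed genes, Peg3, a zinc finger protein gene, was highest in CPM, with a mean of 1072 and a range from 542 to 1628 over the 40 libraries. Impact, which encodes an inhibitor of the translation kinase GCN2, had a mean of 794 CPM. Rasgrf1, a Ras exchange factor gene, had 677, Ndn 525, Dlk1 518, the noncoding Peg13 485 and Nnat 426 CPM. Ndn encodes necdin, a growth-restraining protein of neurons, and Nnat encodes a small protein of the endoplasmic reticulum. At the low end stood Igf2, the fetal growth factor gene, at 3.09 CPM, the antisense RNA Airn at 1.63 and the makorin gene Mkrn3 at 1.15. Between these lay Snrpn at 268, Usp29 at 225, Inpp5f, a phosphoinositide phosphatase gene, at 191, Peg10 at 179, Zdbf2 at 72.5, Plagl1 at 36.9, Magel2 at 33.2, Sgce at 27.5, Kcnq1ot1 at 15.1, Mest at 13.5 and Rtl1 at 12.2 CPM. Per kilobase of exon, the paternally expressed genes were led by Nnat (233 CPM per kb), Impact (155) and Ndn (142).

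Among maternally expressed genes, Meg3, a long noncoding RNA of the Dlk1-Meg3 cluster, had a mean of 4337 CPM, the highest of all members, and was also highest per kilobase (240 CPM per kb). Its cluster neighbours Rian and Mirg, which host small nucleolar RNAs and microRNAs, had 573 and 46.0 CPM. Ppp1r9a, which encodes the actin-binding protein neurabin, had 209 CPM, and Ube3a, a ubiquitin ligase gene, 153. Blcap had 151 CPM, Trappc9 95.9, Copg2 84.0, Igf2r 44.1, Zim1 37.1, Asb4 14.2 and Calcr 9.58. Cdkn1c, which encodes the cell cycle inhibitor p57, had 7.02 CPM, and Slc22a18, a transporter gene, 0.407. Of the switching genes, Gnas, which encodes the stimulatory G protein alpha subunit, had 2146 CPM and Grb10, an adaptor of insulin-type receptors, 188.

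The 3 genes under the filter were near the limit of counting. H19, the maternally expressed noncoding RNA beside Igf2, had 163 counts over all libraries and at least 1 in 20 of them. Dio3, a thyroid hormone inactivating enzyme gene expressed from the paternal copy, had 78 counts in 21 libraries. Phlda2, a maternally expressed gene known for limiting placental growth, had 64 counts in 10 libraries, 44 of them in DBA control male 4. Differences in these genes between groups were not detectable at this depth.

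**Figure D1:**
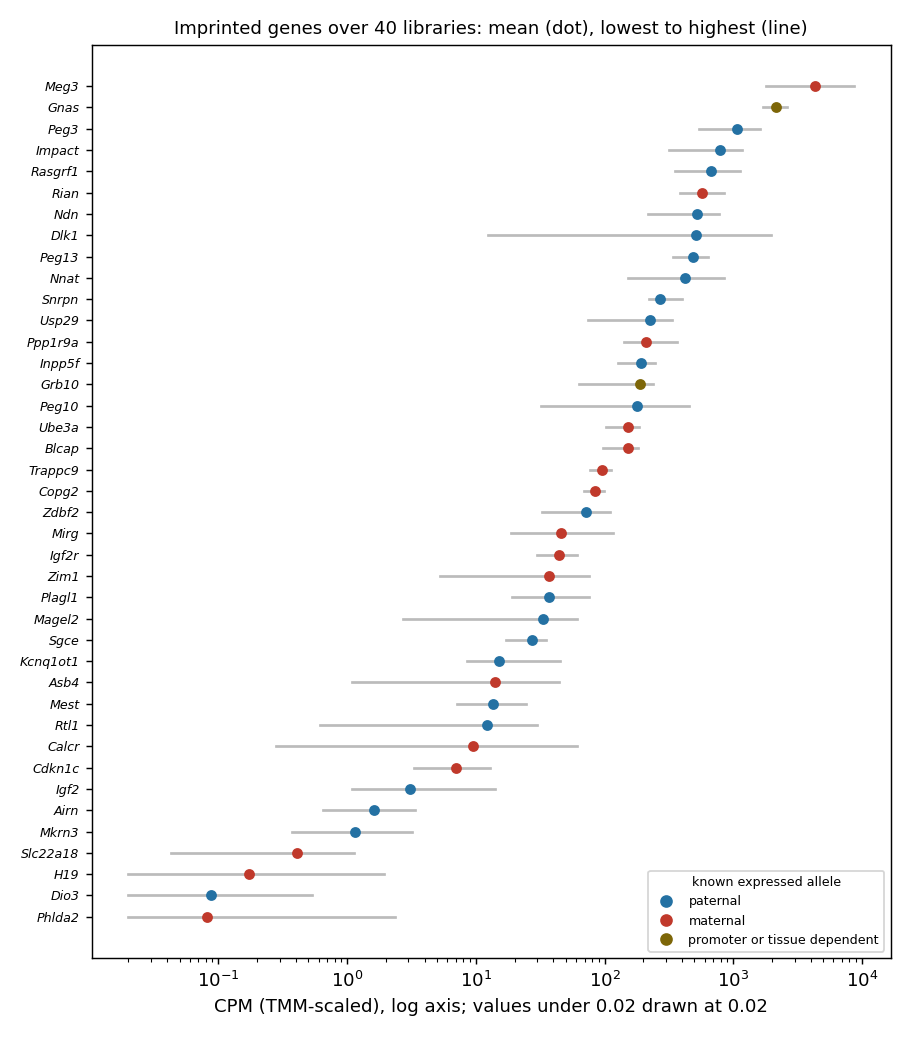
CPM of the 40 imprinted genes on a log axis, with the mean of 40 libraries as a dot and the lowest to highest library as a line; colours give the known expressed allele. Meg3 stands highest at a mean of 4337 CPM, and Dlk1 (12.4 to 1966) and Calcr (0.278 to 61.2) have wide lines.

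Spread between libraries of one group differed strongly among the members. The within-group SD of log2 CPM was largest for Calcr, the calcitonin receptor gene (1.66), Dlk1 (1.28), Asb4 (1.17) and the retrotransposon-derived Rtl1 (0.97). It was smallest for Trappc9, a vesicle trafficking gene (0.098), and Copg2, a coatomer subunit gene (0.12). The median over the 37 members was 0.36, against 0.29 over all genes tested, and 22 of 37 lay above that value. Dlk1 alone ran from 12.4 CPM in C57 RCF female 4 to 1966 CPM in DBA control male 3.

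The first question of the design was whether RCF animals differed from controls in each strain and sex. No member passed an adjusted p of 0.05 in any of the 4 comparisons by edgeR's quasi-likelihood test with Benjamini-Hochberg adjustment. The same test called few genes of any kind: 2 of 18441 (0.0108%) in C57 males, 1 (0.00542%) in C57 females, 3 (0.0163%) in DBA males and 3 (0.0163%) in DBA females. DESeq2 and limma-voom also called 0 members in each. At an unadjusted p under 0.05, edgeR counted 9 of 37 members in C57 males (24.3%, all genes 7.07%), 8 in C57 females (21.6%, all genes 12.5%), 3 in DBA males (8.11%, all genes 6.72%) and 4 in DBA females (10.8%, all genes 12.3%).

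The sign of the members' differences varied between conditions. In C57 males 28 of 37 members had a log2 fold change above 0 (all genes 46.7%), with a median of 0.29 for paternally and 0.20 for maternally expressed genes. In C57 females 11 of 37 lay above 0 (all genes 51.5%), with medians of -0.11 and -0.08. In DBA males 15 of 37 lay above 0 (all genes 48.4%), with medians of -0.06 and -0.04, and in DBA females 28 of 37 (all genes 47.6%), with medians of 0.16 and 0.15. Paternally and maternally expressed genes thus had medians of the same sign in each comparison. With the dopamine, forebrain and hypothalamus marker levels as covariates, the numbers above 0 were 24, 17, 20 and 21 of 37, with medians of 0.07, -0.03, 0.02 and 0.05. Without the 4 libraries high in forebrain markers they were 31, 12, 15 and 24 of 38. Trappc9 was the one member with a log2 fold change above 0 in all 4 comparisons, and no member was below 0 in all 4.

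**Figure D2:**
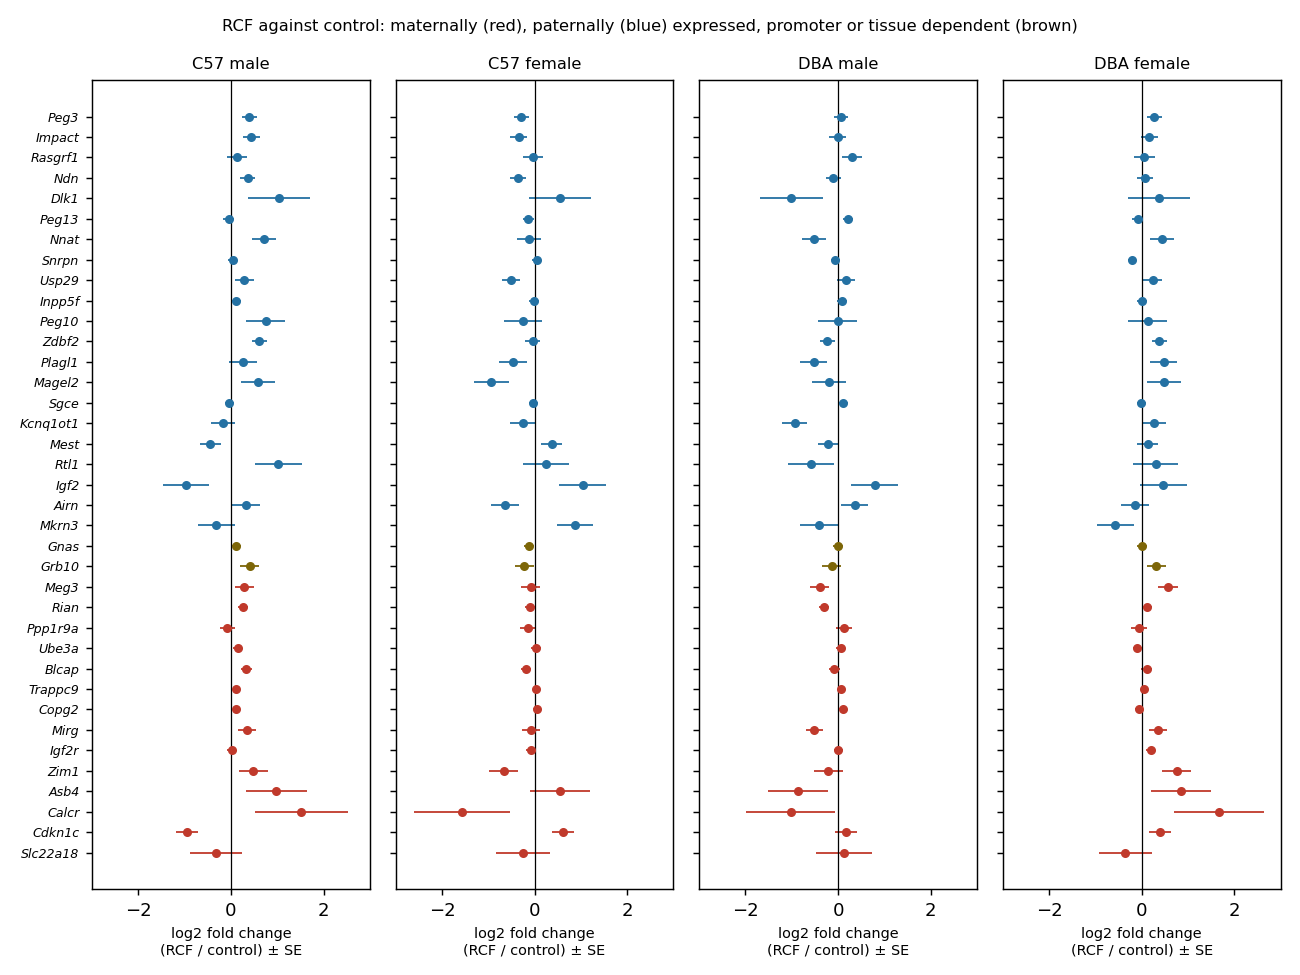
Log2 fold change of RCF against control, with its standard error, for the 37 members tested in each strain and sex; blue marks paternally, red maternally expressed and brown switching genes. In C57 males 28 of 37 points lie above 0 and in C57 females 11 of 37; none passed the adjusted threshold.

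In C57 males, Cdkn1c and Zdbf2 had the smallest p of the members. Cdkn1c (chr7:143458339-143461050, minus strand) stood at 3.28, 3.50, 6.34, 4.05 and 7.14 CPM in RCF males and at 7.71, 6.56, 12.5, 8.55 and 11.8 CPM in controls. The groups overlapped in one place, since the highest RCF library lay above the lowest control. The means were 4.86 ± 1.76 and 9.41 ± 2.59 CPM (SD, n = 5), a log2 fold change of -0.95 (SE 0.23, edgeR adjusted p = 0.352), the 13th smallest p of all genes. Zdbf2, a paternally expressed zinc finger gene, stood at 65.4, 74.6, 70.6, 92.6 and 66.0 CPM in RCF males and 50.02, 48.4, 56.6, 53.9 and 32.5 in controls. Every RCF library lay above every control, with a log2 fold change of 0.61 (SE 0.16, edgeR adjusted p = 0.408, the 20th smallest p).

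Grb10 was the other member whose C57 male groups did not overlap, which makes 2 of 37 members (all genes 0.938%). Its RCF libraries had 192, 208, 189.5, 218 and 191 CPM and its controls 132, 181, 186, 146 and 110.4. The next smallest p belonged to the neighbours Blcap and Nnat, a maternally and a paternally expressed gene that overlap on opposite strands, at log2 fold changes of 0.33 (SE 0.12) and 0.71 (SE 0.27), both with an edgeR adjusted p of 0.637. Peg3 differed by 0.39 (adjusted p = 0.668). Controls 1 and 5, which carried the high forebrain markers, held the 2 lowest Grb10 levels and the 2 lowest Nnat levels of the group. The forebrain marker sum ran from 18.6 to 1653 CPM in the controls and from 26.7 to 164 in RCF males. With the marker covariates the log2 fold changes were 0.07 for Grb10, 0.11 for Peg3, 0.14 for Blcap, 0.39 for Nnat and 0.41 for Zdbf2. Without the libraries high in forebrain markers they were 0.22, 0.26, 0.20, 0.39 and 0.48 in the same order.

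In C57 females, Cdkn1c again had the smallest p among members, here with the higher mean in RCF. Its RCF libraries had 5.78, 11.3, 9.91, 12.8 and 8.96 CPM and its controls 6.55, 6.08, 6.70, 6.23 and 6.38. RCF female 1 lay below all controls and the other 4 above them, with a log2 fold change of 0.61 (SE 0.23, edgeR adjusted p = 0.275). Usp29, a deubiquitinase gene, had 166, 192, 174, 74.9 and 183 CPM in RCF females and 232, 238, 180.1, 226 and 249 in controls, which is -0.51 on the log2 scale (SE 0.20) with an adjusted p of 0.288. RCF female 4, high in forebrain markers, was far below the rest, and without it the Usp29 log2 fold change was -0.33. Magel2, a gene next to Ndn known for its part in hypothalamic function, had 19.5, 26.5, 24.3, 2.74 and 24.2 CPM in RCF females and 51.8, 39.5, 23.7, 33.9 and 37.2 in controls. On the log2 scale this was -0.93 (SE 0.38, adjusted p = 0.310), with the same RCF female 4 lowest, and -0.65 without that library. Hypothalamus markers were lower in RCF for 7 of 10 genes (median log2 fold change -2.80, 6 of the 7 at an unadjusted p under 0.05, 0 past the threshold), and with the marker covariates Magel2 stood at -0.53. Mkrn3 differed by 0.87 on the log2 scale (SE 0.39, adjusted p = 0.354) and Airn by -0.63 (SE 0.30, adjusted p = 0.380), the latter by -0.30 with the covariates. No member's groups were free of overlap (all genes 2.51%).

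In DBA males, the smallest p belonged to Kcnq1ot1, the paternally expressed noncoding RNA known to silence Cdkn1c and its neighbours on that copy. It had 11.4, 11.7, 9.29, 13.5 and 13.7 CPM in RCF males and 14.3, 14.2, 13, 45.0 and 27.7 in controls. Controls 4 and 5 stood above every other library of both groups, and the remaining 3 controls lay among the RCF libraries or just above them. The log2 fold change was -0.94 (SE 0.26, edgeR adjusted p = 0.478) and -0.54 without control 4. Cdkn1c itself had a log2 fold change of 0.18 in DBA males.

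The maternally expressed RNAs of the Dlk1-Meg3 cluster also had lower means in DBA RCF males. Meg3 had 4613, 4417, 4514, 4298 and 3876 CPM in RCF males and 4773, 4129.7, 5596, 8709 and 5406 in controls, a log2 fold change of -0.40 (SE 0.21, edgeR adjusted p = 0.759). Control 4 was the highest for Meg3, Rian and Mirg alike, and the groups overlapped for each. Rian had a log2 fold change of -0.30 (SE 0.11) and Mirg of -0.51 (SE 0.19), both with an adjusted p of 0.700. Without control 4, the library with the lowest depth and the highest hypothalamus markers, Meg3 stood at -0.20, Rian at -0.22 and Mirg at -0.22. Nnat differed by -0.52 on the log2 scale (SE 0.27) with an adjusted p of 0.749. No member's groups were free of overlap (all genes 0.629%).

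In DBA females, Meg3 had the smallest p of the members and the opposite sign. RCF libraries had 4081, 3726, 4991, 4729 and 5069 CPM and controls 3809, 3279, 3305, 2941 and 1838. Control 1 lay above the lowest RCF library, and the other 4 controls lay below all RCF libraries. The log2 fold change was 0.57 (SE 0.21, edgeR adjusted p = 0.282). Zdbf2 had 104, 73.3, 70.3, 96.2 and 91.2 CPM in RCF females and 74.3, 74.7, 44.1, 70.4 and 70.6 in controls, and its groups overlapped, at 0.38 on the log2 scale (SE 0.16) with an adjusted p of 0.331.

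The groups did not overlap for 2 of 37 members in DBA females (all genes 4.30%). Zim1, a maternally expressed zinc finger gene beside Peg3, had 48.5, 35.1, 43.9, 52.8 and 40.6 CPM in RCF females and 31.5, 25.2, 16.5, 32.3 and 25.2 in controls, a log2 fold change of 0.76 (SE 0.31, edgeR adjusted p = 0.331). Snrpn, a splicing protein gene, had 245, 252, 254, 254 and 244 CPM in RCF females and 283, 301, 294, 263 and 303 in controls, which is -0.21 on the log2 scale (SE 0.09, adjusted p = 0.364). Igf2r, the receptor gene for clearance of IGF2, differed by 0.19 on the log2 scale (SE 0.10) with an adjusted p of 0.414. Of 8 forebrain markers, 7 were lower in these RCF females (median log2 fold change -3.13, 5 at an unadjusted p under 0.05, 0 past the threshold), and control 3 was the library high in them. With the marker covariates Zim1 stood at 0.40 and Snrpn at -0.13, and without the libraries high in forebrain markers at 0.64 and -0.19.

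**Figure D3:**
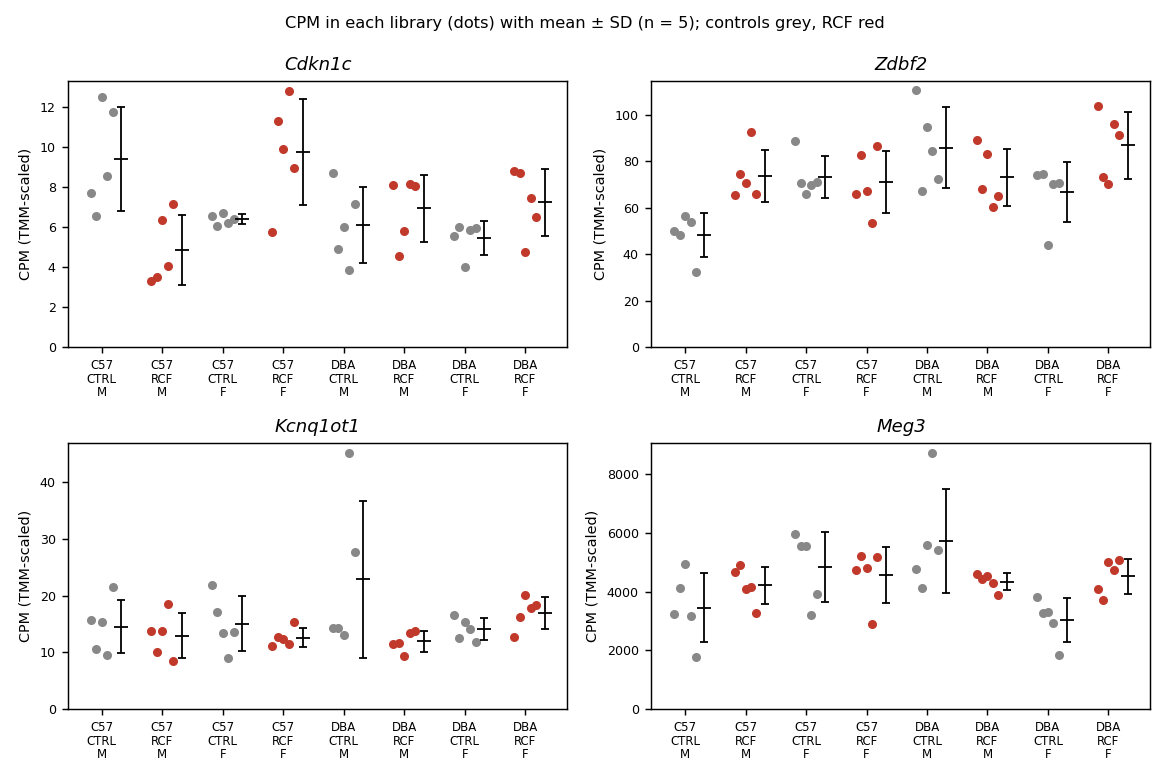
CPM of Cdkn1c, Zdbf2, Kcnq1ot1 and Meg3 in each of the 40 libraries (dots; controls grey, RCF red), with the mean and SD of each group of 5 beside them. Cdkn1c in C57 males runs from 3.28 to 7.14 CPM in RCF and from 6.56 to 12.5 in controls; Kcnq1ot1 reaches 45.0 CPM in 1 DBA control male.

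The tested genes followed through every RCF comparison are given here in the order C57 males, C57 females, DBA males and DBA females. None had an edgeR adjusted p under 0.05. As log2 fold changes, Cdkn1c had -0.95, 0.61, 0.18 and 0.40 and Zdbf2 0.61, -0.04, -0.23 and 0.38. Meg3 had 0.29, -0.08, -0.40 and 0.57 and Peg3 0.39, -0.28, 0.06 and 0.28. Snrpn had 0.04, 0.05, -0.06 and -0.21 and Magel2 0.59, -0.93, -0.19 and 0.48. Ndn had 0.36, -0.35, -0.10 and 0.07, Ube3a 0.14, 0.03, 0.06 and -0.09 and Dlk1 1.03, 0.55, -1.01 and 0.37. Grb10 had 0.40, -0.22, -0.14 and 0.32 and Igf2 -0.97, 1.04, 0.79 and 0.47. Several of these values rested on 1 library. In C57 males, Igf2 was at -0.17 and Dlk1 at 1.72 without control 3, and Dlk1 at 0.59 without RCF male 2. In C57 females, Grb10 was at -0.01 without RCF female 4. In DBA males, Dlk1 was at -0.19 without control 3. In DBA females, Grb10 was at 0.16 and Ndn at -0.06 without control 3, Dlk1 at 0.09 without RCF female 5 and Igf2 at 0.22 without RCF female 2. With the marker covariates, Ndn was at 0.06 and Dlk1 at 0.33 in C57 males, and the sign of Dlk1 turned in both female comparisons (-0.25 in C57 and -0.11 in DBA). In C57 males, Igf2 was highest in RCF male 1 (6.44 CPM) and control male 3 (14.0 CPM) of their groups. H19 was highest in the same libraries, with 26 and 49 counts.

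The sex and strain dependence of the RCF effect was tested directly as differences of differences. Cdkn1c had the smallest p of the members for the sex difference, averaged over strains: its RCF effect was higher in females by 0.89 on the log2 scale (SE 0.23, edgeR adjusted p = 0.464, the 14th smallest p of all genes). No member passed the threshold for the sex difference (all genes 0.00542%) or the strain difference (0.0108%), where unadjusted p-values under 0.05 numbered 4 (all genes 8.48%) and 0 (all genes 6%) of 37. Values above 0 numbered 14 of 37 for the sex difference (all genes 52.8%) and 17 of 37 for the strain difference (all genes 47.4%). The mean RCF effect over the 4 conditions was 0.18 for Zdbf2 (SE 0.08, adjusted p = 0.690), -0.27 for Kcnq1ot1 (SE 0.13, adjusted p = 0.706) and 0.06 for Trappc9 (SE 0.03, adjusted p = 0.706). No member passed there either (all genes 0.0217%), with 2 at an unadjusted p under 0.05 (all genes 6.95%) and 24 of 37 above 0 (all genes 46.8%). DESeq2 and limma-voom called 0 members in these 3 comparisons.

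Strain separated more of the members. The submitters' notes name only the GRCm38 build for both strains, and the part of strain variants in read mapping was not tested. Between DBA and C57 controls of both sexes, 7 of 37 members passed the edgeR threshold (18.9%, all genes 16.0%), 6 higher (all genes 7.88%) and 1 lower (8.13%) in DBA. Between RCF animals, 10 passed (27.0%, all genes 23.8%), 8 higher (all genes 11.3%) and 2 lower (12.4%) in DBA. At an unadjusted p under 0.05 there were 14 (37.8%, all genes 28.6%) and 16 (43.2%, all genes 35.5%). The total shares were near those of all genes, while 16.2% and 21.6% of members were called higher and 2.7% and 5.41% lower. Of all members, 27 of 37 had a positive log2 fold change in each set (all genes 51.5% and 49.1%), and 33 of 37 had the same sign in both (89.2%, all genes 75.2%). No member's strains were free of overlap in either set (all genes 2.48% and 4.37%).

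Marker levels differed between the strains as well. In DBA controls, 10 of 10 markers of meninges and fibroblasts had lower values (median log2 fold change -1.12), of which 6 fell, and 7 of 10 hypothalamus markers had higher values (median 0.37), of which 1 rose. In DBA RCF animals, 12 of 12 dopamine neuron markers had lower values (median -1.67), of which 2 fell, and 8 of 10 hypothalamus markers had higher values (median 1.14), of which 2 rose. Of the other lists there, 3 of 4 serotonin neuron markers, 4 of 8 oligodendrocyte markers and 3 of 10 markers of meninges and fibroblasts fell. So did 6 of 8 microglia, 4 of 8 endothelium and 2 of 7 astrocyte markers, while 2 of 5 choroid plexus markers rose. Of the other lists in controls, 7 of 8 endothelium, 2 of 8 microglia, 2 of 7 astrocyte and 1 of 5 choroid plexus markers fell. In DBA controls, 12 of 12 dopamine neuron markers (median -0.57) and 8 of 8 oligodendrocyte markers (median -0.36) also had lower values, with 0 past the threshold. With dopamine, forebrain and hypothalamus marker levels as covariates, 7 members passed in controls and 8 in RCF animals.

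Ndn (chr7:62346569-62350262, plus strand) and Peg10, both paternally expressed, rose in DBA in both sets. In controls, Ndn ran from 272 through a median of 423 to 541 CPM in C57 and from 396 through 690 to 753 CPM in DBA. DBA control female 3 was the lowest DBA library and the only one below the C57 median. The log2 fold change was 0.65 (SE 0.12, edgeR adjusted p = 9.06e-05) in controls and 0.63 (SE 0.12, adjusted p = 0.000124) in RCF animals, where C57 ran from 216 through 411 to 558 and DBA from 502 through 609 to 772 CPM. Peg10 (chr6:4747306-4760517), a retrotransposon-derived gene, ran from 65.9 through 106 to 145 CPM in C57 controls and from 80.1 through 226 to 378 in DBA controls. On the log2 scale Peg10 rose by 1.10 (SE 0.30, adjusted p = 0.00847) in controls and 0.90 (SE 0.30, adjusted p = 0.0243) in RCF animals. Peg10 followed the hypothalamus marker level, as given below, and with the marker covariates its log2 fold changes were 0.64 (adjusted p = 0.0558) and 0.55 (adjusted p = 0.110). In the RCF set its call also ended without C57 male 2, DBA male 1 or DBA female 1 (highest adjusted p = 0.0761).

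The calls shared by both sets, Ndn and Peg10, made up 28.6% of the control calls and 20% of the RCF calls, against 71.7% and 48.3% over all genes. These shares depend on which side of the threshold each p fell. By sign, 33 of 37 members were alike in both sets (89.2%, all genes 75.2%). Among controls alone, Rian rose by 0.30 (SE 0.08, edgeR adjusted p = 0.00471), Nnat by 0.61 (SE 0.19, adjusted p = 0.0210), Mirg by 0.43 (SE 0.13, adjusted p = 0.0220) and Zdbf2 by 0.35 (SE 0.11, adjusted p = 0.0277) in DBA on the log2 scale. Sgce, the epsilon-sarcoglycan gene next to Peg10, fell by 0.24 (SE 0.07, adjusted p = 0.0158). Among RCF animals, Rian stood at 0.13, Nnat at 0.27, Mirg at 0.22, Zdbf2 at 0.14 and Sgce at -0.15, none past the threshold. Without DBA control male 4 the calls of Nnat and Mirg ended. Mirg also lost its call without C57 control male 5 or DBA control female 1, and without the forebrain-high libraries (adjusted p = 0.0577). Zdbf2 lost it without C57 control male 5, C57 control female 3, DBA control male 1 or DBA control female 1 or 2, and with marker covariates (0.0707).

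Among RCF animals, Peg3 and Usp29 rose in DBA. Usp29 ran from 74.9 through 188 to 257 CPM in C57 and from 238 through 258 to 317 CPM in DBA, a log2 fold change of 0.56 (SE 0.14, edgeR adjusted p = 0.00346). Peg3 ran from 543 through 979 to 1191 CPM in C57 and from 1096 through 1226 to 1536 in DBA, or 0.41 higher on the log2 scale (SE 0.11, adjusted p = 0.00780). The DBA libraries were thus the higher, with some overlap. With the marker covariates Usp29 stood at 0.41 and Peg3 at 0.27, and the highest edgeR adjusted p over the alternatives other than leaving out single libraries was 0.0116 and 0.0308. Peg13 rose by 0.29 (SE 0.08, adjusted p = 0.00868), and with marker covariates the value was 0.17 (adjusted p = 0.0677). Igf2r rose by 0.21 (SE 0.07, adjusted p = 0.0218), a call that ended without C57 male 2 or without the low-count filter (0.052). Among controls the log2 fold changes were 0.24 for Usp29, 0.29 for Peg3, 0.14 for Peg13 and 0.08 for Igf2r. None passed there (edgeR adjusted p = 0.262, 0.0768, 0.286 and 0.463), but Peg3 did without the libraries high in forebrain markers (adjusted p = 0.00669).

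Mkrn3 fell by 0.94 in DBA RCF animals (SE 0.28, edgeR adjusted p = 0.0139), from a median of 1.35 CPM in C57 to 0.622 CPM in DBA, with 8 to 69 counts per library. Snrpn fell by 0.19 (SE 0.07, adjusted p = 0.0321), and this call ended without C57 male 4 or female 4. Gnas rose by 0.20 (SE 0.07, adjusted p = 0.0455) and Rasgrf1 by 0.42 (SE 0.16, adjusted p = 0.0457). The Gnas call held without 1 library only for C57 male 4 or 5, C57 female 4, DBA male 4 and DBA female 2 or 5, and was lost without any other. The Rasgrf1 call was likewise held only without C57 male 3, 4 or 5, C57 female 4, DBA male 4 or DBA female 2, 3 or 5. With marker covariates, Gnas stood at 0.03 (adjusted p = 0.703) and Rasgrf1 at 0.13 (adjusted p = 0.335). Among controls, Mkrn3 stood at -0.17, Snrpn at -0.02, Gnas at 0.19 and Rasgrf1 at 0.29. None passed there (edgeR adjusted p = 0.742, 0.897, 0.0711 and 0.231), but Gnas did without the libraries high in forebrain markers (adjusted p = 0.0146). The control and RCF sets share no library, but the difference between the strain effects of the 2 sets is the strain difference of the RCF effect, for which no member passed. When only the 20 libraries compared entered the fit, the calls of Mirg and Sgce in controls (adjusted p = 0.117 and 0.0684) and of Rasgrf1 and Snrpn in RCF animals (0.0719 and 0.0563) ended.

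**Figure D4:**
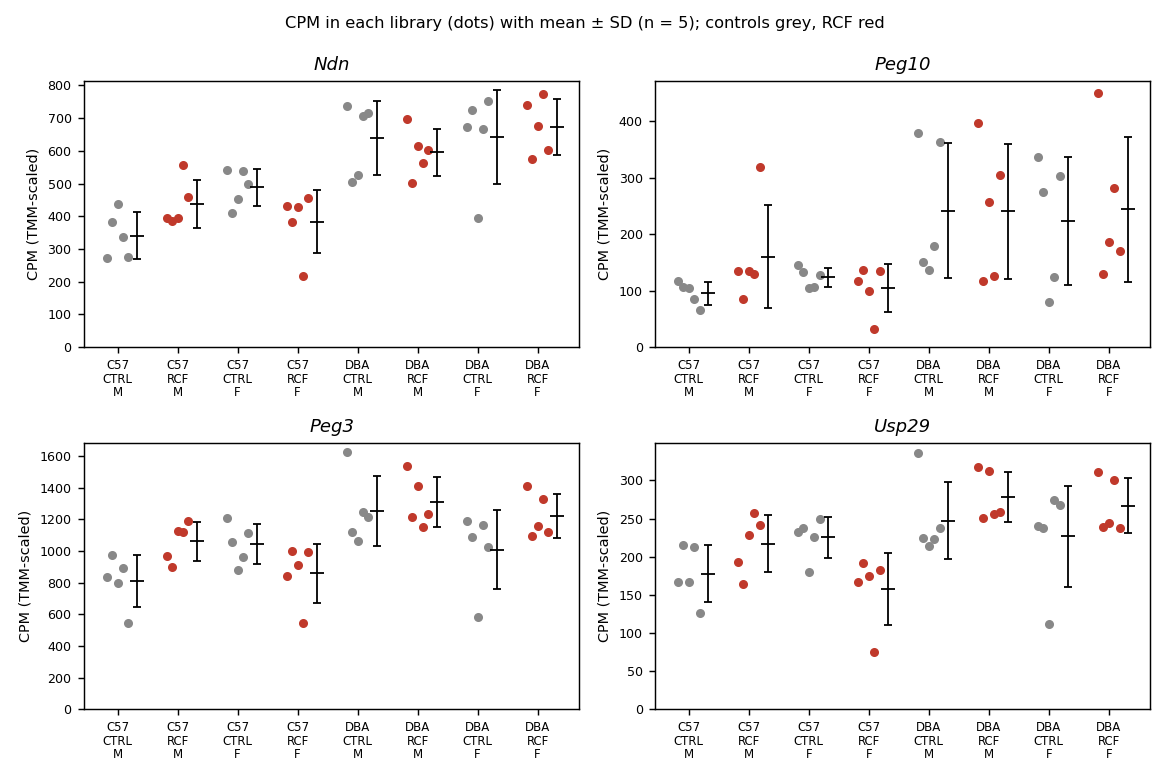
CPM of Ndn, Peg10, Peg3 and Usp29 in each library (dots; controls grey, RCF red), with the mean and SD of each group of 5. Ndn in DBA RCF animals runs from 502 to 772 CPM and in C57 RCF animals from 216 to 558; 1 DBA control female lies low for all 4 genes.

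Between female and male controls no member passed the threshold (17 of 18441 genes, 0.0922%, with 0.038% higher and 0.0542% lower in females), and 4 of 37 had an unadjusted p under 0.05 (10.8%, all genes 10.3%). Of the 37, 24 had a log2 fold change above 0 (all genes 47.1%). DESeq2 and limma-voom also called 0 members. The smallest p belonged to Igf2r, at a log2 fold change of -0.18 (edgeR adjusted p = 0.336), and to Airn, the paternally expressed antisense RNA that overlaps Igf2r, at 0.48 (adjusted p = 0.425). Ndn followed at 0.26 (adjusted p = 0.428), Cdkn1c at -0.36 (adjusted p = 0.437) and Blcap at 0.16 (adjusted p = 0.526).

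Members of some clusters varied together between libraries of a group. Deviations of log2 CPM from the group mean were correlated over the 40 libraries for 15 pairs chosen within clusters, with 100000 permutations within groups and adjustment over the 15. Peg3 and Usp29, both paternally expressed and read outward from the start region printed above, had Pearson's r of 0.944 and Spearman's rho of 0.897 (permutation p = 1e-05 for both, the smallest the permutations can give, adjusted 3e-05 and 3.75e-05). Without the 2 libraries farthest in Peg3, r was 0.909. Ndn and Magel2, neighbours that are both paternally expressed, had r of 0.789 and rho of 0.756 (permutation p = 1e-05 for both, adjusted 3e-05 and 3.75e-05), and r of 0.747 without the 2 farthest libraries.

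The maternally expressed RNAs of the Dlk1-Meg3 cluster varied together as well. Meg3 and Rian had r of 0.818 and rho of 0.779 (permutation p = 1e-05 for both, adjusted 3e-05 and 3.75e-05), and 0.824 without the 2 farthest. Meg3 and Mirg had r of 0.839 and rho of 0.777 with the same p, and 0.811 without them. Rian and Mirg had r of 0.752 and rho of 0.683 (permutation p = 1e-05 and 2e-05, adjusted 3e-05 and 6e-05), and 0.704 without them. Dlk1 and Meg3, which are read from opposite parental copies, had r of 0.463 and rho of 0.425 (permutation p = 0.0122 and 0.0163, adjusted 0.0262 and 0.0350), and 0.378 without them. Nnat and Blcap, another pair of opposite parental origin, had r of 0.775 and rho of 0.702 (permutation p = 9e-05 and 8e-05, adjusted 0.000225 and 0.0002), and 0.652 without them. Nnat and Blcap share bases on opposite strands, as do Igf2r and Airn, Mest and Copg2, and Ube3a and Snhg14, and Peg13 lies within Trappc9 on the same strand. The strand setting of the counting is not given in the sources used here, so reads of one such gene could be counted to the other.

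The other 8 pairs did not pass the adjusted threshold. Kcnq1ot1 and Cdkn1c, the silencing RNA and its target, had r of -0.15 (rho -0.07, adjusted permutation p = 0.484 and 0.739). Airn and Igf2r had r of -0.37 (rho -0.28, adjusted permutation p = 0.120 and 0.269). Snrpn had r of -0.32 with Ndn (rho 0.01) and 0.12 with Ube3a (rho 0.13), Peg10 0.19 with Sgce (rho 0.17), Mest -0.18 with Copg2 (rho -0.17), Peg13 0.35 with Trappc9 (rho 0.23), and Sgce 0.08 with Ppp1r9a (rho 0.20), with adjusted permutation p from 0.118 to 0.975. The H19 and Igf2 pair was not run because H19 was under the filter. Libraries share their depth and tissue content, which enter every such correlation.

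**Figure D5:**
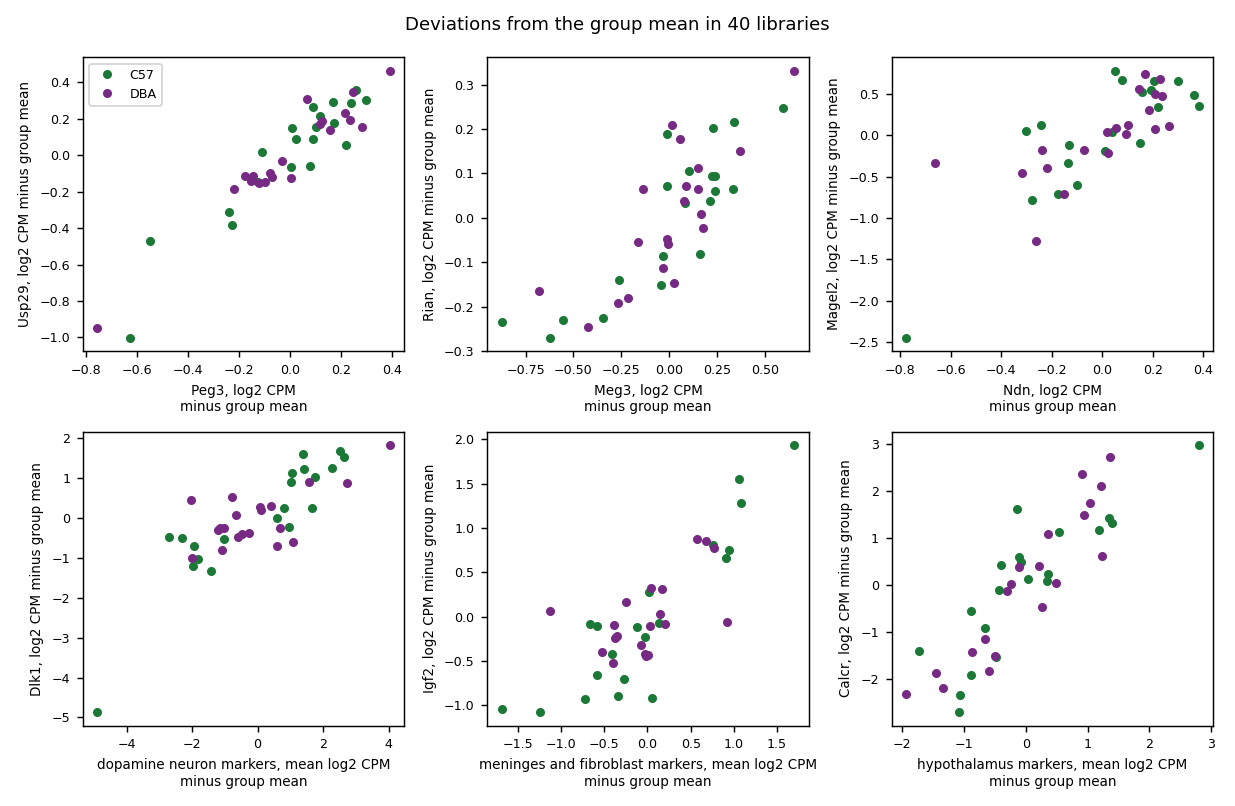
Deviation of log2 CPM from the group mean in 40 libraries (C57 green, DBA purple): 3 pairs of cluster neighbours above, and below 3 members against the mean of a marker list. Points rise together in all 6 panels (r from 0.789 to 0.944), and 1 C57 library lies far down in the Dlk1 and Magel2 panels.

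Several members followed markers of cells and regions. Deviations of the 37 members were correlated with the mean of each of 11 marker lists in the same way, and 34 of 407 relations passed after adjustment, 13 of them positive and 21 negative. Forebrain and hindbrain markers put the libraries in separate clusters, so no coefficient over all libraries is given for these lists, although 3 of the 34 relations were with the forebrain list. Dlk1 had r of 0.822 and rho of 0.771 with dopamine neuron markers (permutation p = 1e-05 and 2e-05, adjusted 0.000581 and 0.00136), and r of 0.766 without the 2 farthest libraries. Rtl1, its cluster neighbour, had r of 0.677 (rho 0.584, permutation p = 0.00048 and 0.00078, adjusted 0.00944 and 0.0138, and 0.528 without the 2 farthest). Rasgrf1 had the opposite sign, at r of -0.79 and rho of -0.72 with the same list and the same p, and -0.69 without them. Of the 10 relations with dopamine markers that passed, 3 were positive and 7 negative, whereas all 6 with hypothalamus markers were positive. The dopamine marker list ran from 219 to 4421 CPM in C57 control males and from 283 to 7372 CPM in C57 RCF males.

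Hypothalamus markers went with Calcr (r of 0.882, rho of 0.892), Plagl1, a zinc finger transcription factor gene (0.775 and 0.770), and Peg10 (0.610 and 0.638), each with a permutation p of 1e-05 (adjusted 0.000581 for r and 0.00136 for rho). Without the 2 farthest libraries the r were 0.864, 0.776 and 0.540. Gnas (r of 0.619), Magel2 (0.577) and Peg3 (0.405) had permutation p of 5e-05, 4e-05 and 0.00203 for r (adjusted 0.00226, 0.00204 and 0.0267), with rho of 0.615, 0.681 and 0.584. Without the 2 farthest libraries these r were 0.531, 0.513 and 0.377. Igf2 went with markers of meninges and fibroblasts, with r of 0.821 and rho of 0.737 (permutation p = 1e-05 and 6e-05, adjusted 0.000581 and 0.00244), and 0.769 without the 2 farthest. In the RCF comparisons, log2 fold changes of Calcr ran from -1.57 to 1.68, those of Plagl1 from -0.53 to 0.48 and those of Igf2 from -0.97 to 1.04, and the part of these marker levels in them was not tested gene by gene.

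Further imprinted genes and the genes that set or keep imprints were counted beside the members. Of 28 further imprinted genes tested, 0 passed in any RCF comparison by edgeR, 3 passed between strains in controls (all genes 16.0%) and 10 in RCF animals (all genes 23.8%). Pon2, a paraoxonase gene near Peg10, fell by 0.73 in DBA controls and by 0.75 in DBA RCF animals on the log2 scale, and Casd1 rose by 0.31 in both. Nespas, the antisense RNA at Gnas, rose by 1.39 in DBA controls. Snhg14, the paternally expressed RNA that runs opposite to Ube3a, fell by 0.47 in DBA RCF animals. Ddc, a dopamine synthesis gene with imprinted expression in other tissue, fell by 2.55 there, where 12 of 12 dopamine neuron markers had lower values in DBA (median -1.67, 8 at an unadjusted p under 0.05). Of 23 regulators of imprinting tested, 0 passed in RCF comparisons, 3 between strains in controls and 6 in RCF animals, beside the same shares of all genes. Trim28 rose in DBA by 0.21 in controls and 0.23 in RCF animals, and Arid4b by 0.19 and 0.23. Dnmt1, the maintenance methyltransferase gene, rose by 0.33 in DBA RCF animals.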

How the data were processed

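Messenger RNA was sequenced from 40 ventral tegmental area punches, 5 for each of 8 groups taken from the labels. Per the labels' protocols, libraries were made with a strand-keeping mRNA kit (Tecan Universal Plus) and read as single 75 nt reads. Per the submitters' processing notes, bcl2fastq 2.20, cutadapt 1.11, FastQC and the GRCm38 (mm10) build were used. The aligner, the counting tool and its strand setting were not given in the sources used here. Raw gene counts were deposited by the authors, as whole numbers with no normalization. Identifiers were matched to GENCODE M21 symbols with their version for 54573 genes and without it for 657, and 241 had no match. Within groups, no library looked like a second deposit of another: over 80 within-group pairs, chi-square divided by its degrees of freedom was 5.51 to 141. Pairs from different groups were not examined in this way.

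One model with a mean per group was fitted to all 40 libraries with edgeR 4.0.16 (R 4.3.3; robust quasi-likelihood test, TMM factors from 0.905 to 1.09, filterByExpr, 32 residual degrees of freedom), which left 18441 genes. P-values were adjusted over all genes tested by the Benjamini-Hochberg method, with a threshold of 0.05. Compared were RCF and control within each strain and sex, the mean and differences of these effects, strain in controls and in RCF animals, and sex in controls. CPM values are scaled by TMM, and log2 CPM for correlations used a prior count of 2. Alternatives were RLE scaling, no low-count filter, DESeq2 1.42.0, limma-voom 3.58.1, only the compared libraries, the replicate number as a block, marker covariates, leaving out each library, a prior count of 0.5 and, added after seeing marker levels, leaving out 4 libraries high in forebrain markers. Named genes were every member past the threshold, the 5 members of smallest p where fewer than 5 passed, and 12 genes followed in every RCF comparison, of which 11 were tested and H19, under the filter, is given by its counts and CPM only. The members and all gene lists were chosen with earlier results of these data known.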

Additional observations from a re-analysis of the deposited data

Results flagged for a closer look

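For the 12 genes followed in every RCF comparison, each group of 5 libraries was examined for 1 library far from the others, by the gap to its nearest neighbour over the whole range of the group (above 0.71). This held in 18 of 96 sets, and chance flags about 1 in 20. Of the 18, 9 fell in the libraries high in forebrain markers. DBA control female 3 was the lowest of its group for Cdkn1c (3.99 CPM, the others from 5.57 to 6.01), Grb10 (90.6, the others from 183 to 192), Magel2 (23.8), Ndn (396), Peg3 (579.7) and Zdbf2 (44.1). C57 RCF female 4 was lowest for Grb10 (63.8 CPM) and Meg3 (2898 CPM, the others from 4733 to 5215) and highest for Snrpn (397).

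Dlk1 stood apart in C57 control male 3, at 825 CPM with the others from 112 to 305, and in DBA control male 3, at 1966 CPM with the others from 314 to 467. Zdbf2 was high in C57 control female 1, at 88.9 CPM. Igf2 was high in C57 RCF male 1 (6.44 CPM) and DBA RCF male 4 (5.53 CPM). H19 was high in C57 control male 3 (1.95 CPM), C57 RCF male 1 (1.09 CPM), DBA RCF female 2 (0.175 CPM) and C57 control female 3 (0.0797 CPM, which is 2 counts). The part of tissue content or depth in these values was not tested.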

How the results depend on the processing

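No imprinted gene passed in an RCF, interaction or sex comparison under any alternative run, with 0 members in each, DESeq2, limma-voom and the replicate block included. Without a low-count filter, which tests more genes, 4 members passed between strains in controls (7 in the analysis reported) and 6 in RCF animals (10). The calls that ended there were those of Mirg, Nnat and Zdbf2 in controls and of Gnas, Igf2r, Peg10 and Rasgrf1 in RCF animals. Leaving out 1 library gave 5 to 10 members in controls (fewest without C57 control male 5, most without DBA control female 3) and 6 to 12 in RCF animals (fewest without C57 RCF male 2, most without DBA RCF female 2). No value past the threshold changed sign, but uncalled values did. With marker covariates, Dlk1 went to -0.25 in C57 females, -0.11 in DBA females and -0.09 in the mean RCF effect, Zdbf2 to 0.09 in C57 females, Magel2 to 0.08 in DBA males, Ndn to -0.10 in DBA females and Grb10 to -0.02 in the mean RCF effect. Without the libraries high in forebrain markers, Meg3 went to 0.04, Snrpn to -0.10, Ube3a to -0.0005 and Zdbf2 to 0.04 in C57 females, Ndn to -0.06 in DBA females and Snrpn to 0.03 between control strains. Leaving out 1 library turned the sign of these same 6 values, of Snrpn in C57 males, of Peg3 and Ube3a in DBA males and of the mean RCF effects of Magel2 and Ndn, all within 0.11 of 0. The cause was not tested. The 7 pairs passing within clusters were 7 under each alternative, and the 34 marker relations were 33 with a prior count of 0.5 and 38 with RLE scaling. With DESeq2 the counts over all genes rose to 7, 88, 18 and 44 in the 4 RCF comparisons, in the order given above. Replicate numbers did not pair the libraries, since same-numbered RCF and control libraries had correlations over 0.1 in 0 or 1 of 5 pairs per comparison. With the replicate block the count of members stayed at 0 in the RCF comparisons and changed no call of a named gene. Depth limits H19, Dio3 and Phlda2, which were under the filter.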
